A study of Mus musculus with 12 samples.

Results

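The genes described here encode the machinery of clathrin-mediated endocytosis and endosomal sorting in liver sinusoidal endothelial cells (LSECs). They were chosen by name, with earlier results of these data known but no measured value used as a criterion. The list held 41 clathrin, adaptor and endosomal trafficking genes. Of these, 39 were measured among the 24011 genes tested. Ap2m1, the medium subunit of the AP2 adaptor, and Picalm, a clathrin assembly protein, were not paired with a row of the value table by the platform annotation and are not analysed here. The study profiled LSECs of C57BL/6J mice aged 3 to 4 months on Affymetrix arrays, 12 in all, in 4 genotypes of 3 arrays each. WT mice carried both stabilin genes, Stab1KO mice lacked Stab1, Stab2KO mice lacked Stab2, and DKO mice lacked both. Cells were taken after liver perfusion with magnetic beads against CD146, a surface protein of endothelial cells, purity was checked by flow cytometry, and RNA was extracted straight after isolation. Each array held the pooled cells of 3 mice, so the spread between arrays is that between pools and not between mice. The labels restrict neither deletion to one cell type and do not say whether the genotypes were littermates.

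Stabilin-1 and stabilin-2 are scavenger receptors of the sinusoidal endothelium, a cell type known for the speed with which it clears waste macromolecules from the blood through clathrin-coated pits. In such a pit the AP2 adaptor binds cargo tails, membrane lipid and clathrin. Curvature proteins and dynamin then shape and sever the vesicle. Rab5 and its tether EEA1 direct the vesicle to the early endosome, from which retromer and sorting nexins return receptors, Rab4 and Rab11 recycle them and Rab7 leads on to the lysosome. AP1 and the GGA adaptors sort cargo between the Golgi and endosomes.

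The values are log2 expression summarised by the robust multi-array average (RMA), which ranged from 2.94 to 13.9 over the whole table with a median of 5.11. They allow a gene to be compared between arrays, but not 1 gene with another. The targeted genes followed the labels: the Stab1 mean was 12.54 ± 0.08 (SD, n = 3) in WT, 5.31 ± 0.14 in Stab1KO and 5.23 ± 0.23 in DKO, and the Stab2 mean was 13.05 ± 0.05 in WT, 6.81 ± 0.57 in Stab2KO and 6.65 ± 1.09 in DKO. DKO replicate 3 stood apart from the other arrays. Its correlation with them over all genes was 0.956 to 0.968, against at least 0.987 among the other 11, and the mean of 14 neutrophil genes was 11.5 in it and 5.26 to 6.49 elsewhere. The mean of 13 LSEC markers, none of which lay below the table median in all arrays, was 12.68 to 12.74 in the 9 arrays other than DKO, 12.65 and 12.67 in DKO replicates 1 and 2, and 12.37 in DKO replicate 3. The mean of 10 pan-endothelial genes was 12.54 to 12.61 in the other 11 arrays and 12.25 in DKO replicate 3. That of 11 genes of larger vessels was 9.21 to 9.73 in WT, 9.72 to 9.96 in the single knockouts, 10.30 and 10.31 in DKO replicates 1 and 2 and 9.85 in DKO replicate 3, and 4 of the 11 were called higher in DKO against WT. Among markers of other cells, the mean of 15 stellate cell genes was 7.85 to 8.35 in WT and 6.14 to 6.76 in the knockouts. Of the 15, 10 were called lower in DKO against WT with all 12 arrays. The mean of 14 Kupffer cell genes was 7.88 to 9.76 in WT, 8.38 to 9.31 in Stab1KO, 7.46 to 7.85 in Stab2KO and 8.17 to 9.20 in DKO. The mean of 5 cholangiocyte genes was 7.42 to 7.96 in DKO and 6.03 to 6.79 elsewhere, and that of 17 genes of the response to tissue dissociation was 11.90 to 12.26 in DKO and 10.81 to 11.79 elsewhere. In DKO against WT, 4 of the 5 cholangiocyte genes and 4 of the 17 dissociation genes were called higher. Of 11 hepatocyte genes 1 was called lower. No neutrophil, Kupffer cell, LSEC, pan-endothelial, smooth muscle, T and natural killer cell or B and plasma cell marker was called. These marker counts are from all 12 arrays, where 1.80% of all genes were called and 1.05% were called lower. The part of these cells and of the dissociation response in the results below was not tested. The DKO results below are given with and without DKO replicate 3 where its removal ends a call, turns a sign or moves a value by more than 1.5 times.

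In LSECs lacking both stabilins, 2 genes of this machinery fell: Ap2s1, the small sigma subunit of AP2, and Sh3gl1, which encodes endophilin A2, a protein that bends membrane at the neck of the coated pit. They made up 2 of the 39 genes measured, and none rose. By the same criterion, limma with Benjamini-Hochberg adjustment over all genes at an adjusted p under 0.05, 1.80% of all genes tested passed in this comparison and 1.05% passed as lower. Leaving out DKO replicate 3, the count was 1 of 39, Ap2s1, against 1.77% of all genes called and 0.729% called lower. In bulk samples, fewer cells of a type and less RNA per cell cannot be told apart. The share of all calls that were lower was 58.1% (251 of 432) on the deposited scale and 36.9% (186 of 504) after cyclic loess between arrays.

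The 39 genes lay mostly on the low side in DKO without passing the test. The median DKO minus WT difference was -0.20 over the 39 and -0.02 over all genes, and 35 of the 39 were below 0 (89.7%), against 56.0% of all genes. Among genes whose mean signal exceeded the 40th percentile, the median was -0.07 and 60.3% were below 0. Without DKO replicate 3 the median of the 39 was -0.13 and 35 were again below 0, against -0.01 and 53.8% of all genes. After cyclic loess the median was -0.10 with 29 below 0 (74.4%), where the median of all genes was 0.01 and 48.3% were below 0. At an unadjusted p under 0.05, 16 of the 39 were lower and none higher, against 10.7% of all genes lower; without DKO replicate 3 there were 7, against 7.21%. Each of the 3 DKO arrays lay below each WT array for 18 of the 39 genes, a pattern held by 15.0% of all genes. The opposite pattern occurred in 0 of the 39 and in 8.97% of all genes. With DKO replicates 1 and 2 alone, 19 of the 39 lay below every WT array, where 20.0% of all genes did.

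**Figure D1:**
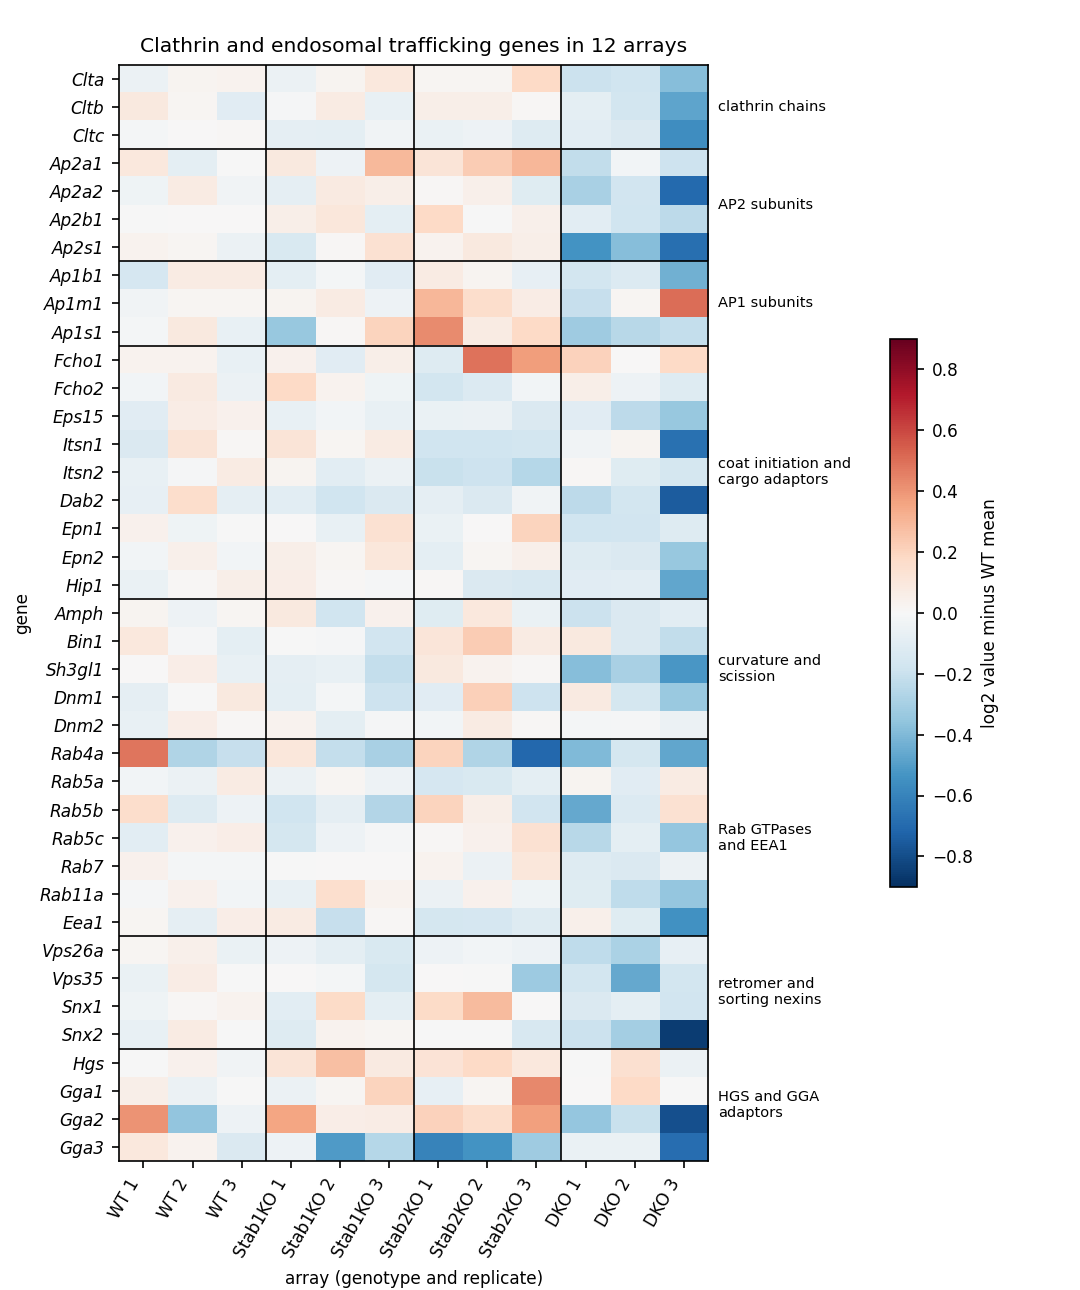
Log2 expression minus the WT mean of the gene for each of the 39 genes (rows, grouped by role) in each of the 12 arrays (columns, grouped by genotype); blue is lower and red is higher than the WT mean. The DKO columns are mostly blue, most deeply in DKO replicate 3, while the Stab1KO and Stab2KO columns show no shared direction.

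The arrays of DKO were not alike. The median of the 39 genes relative to their WT means was -0.12 in DKO replicate 1, -0.13 in replicate 2 and -0.33 in replicate 3. The same median over all genes was -0.01, -0.02 and -0.05. In the other 9 arrays the median of the 39 stayed between -0.03 and 0.02. DKO replicate 3 was the lowest of the 12 arrays for 23 of the 39 genes, which was so for 24.1% of all genes, and it lay below both other DKO arrays for 28, against 46.1% of all genes. That array also held the neutrophil signal and the lower LSEC marker mean given above, and their part in its values was not tested.

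**Figure D2:**
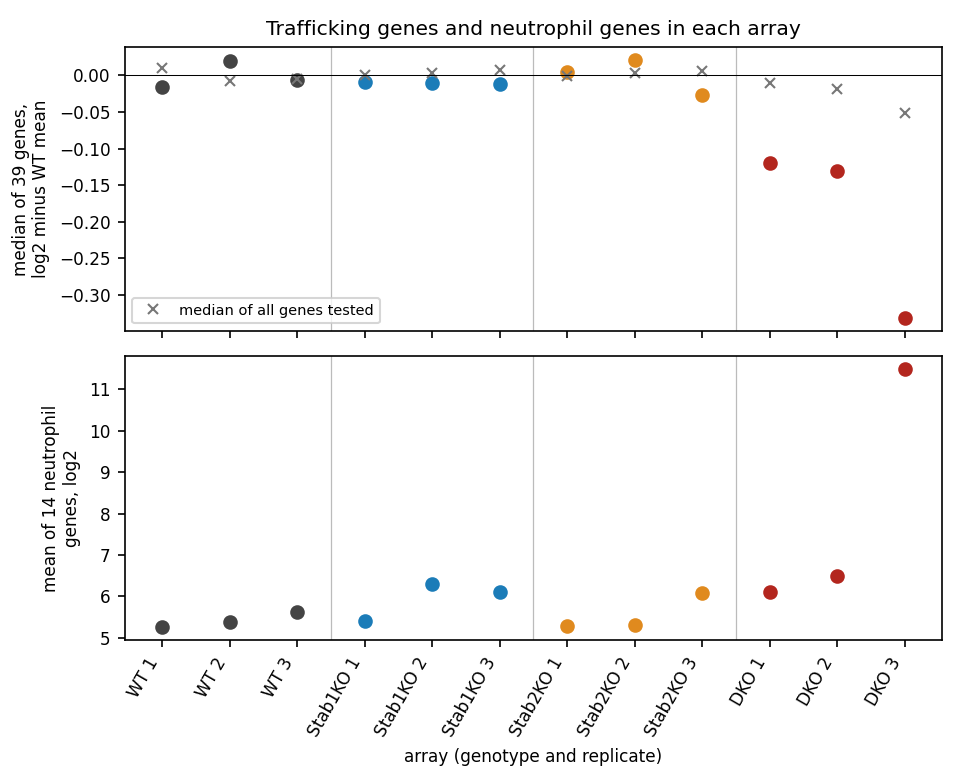
Upper panel, the median of the 39 genes minus their WT means (circles) and the same over all genes (crosses) in each array, in log2 units; lower panel, the mean log2 expression of 14 neutrophil genes. The 3 DKO arrays have the lowest medians, -0.12, -0.13 and -0.33, and the last of them also has the neutrophil mean of 11.5.

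With all 12 arrays limma called Ap2s1 and Sh3gl1 lower in DKO against WT. Without DKO replicate 3 Sh3gl1 was not called (adjusted p = 0.0697). The promoters of both genes are shown because they share an exact match to an ETS transcription factor motif near the start of transcription. They are the 150 bases before the start in RefSeq on GRCm38.p6, read 5′ to 3′ on the strand of the gene, and capitals mark the motif CCGGAAGT. The Ap2s1 window is chr7:16738294-16738443 on the plus strand, and the Sh3gl1 window is chr17:56036638-56036787 on the minus strand, upstream of the more downstream of the 2 starts listed for that gene.
Ap2s1: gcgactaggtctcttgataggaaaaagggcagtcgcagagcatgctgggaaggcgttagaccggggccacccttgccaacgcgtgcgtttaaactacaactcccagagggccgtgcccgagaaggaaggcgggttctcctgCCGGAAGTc
Sh3gl1: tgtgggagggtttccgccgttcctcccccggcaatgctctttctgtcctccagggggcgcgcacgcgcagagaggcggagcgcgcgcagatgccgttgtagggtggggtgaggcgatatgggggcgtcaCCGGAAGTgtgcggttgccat
The motif began 9 bases before the start of Ap2s1 and 21 bases before that of Sh3gl1. A promoter entry was matched for 34 of the 39 genes. Over the listed windows of 300 bases, searched on both strands, CCGGAAGT was present in 4 of the 34 (11.8%), Ap2s1, Sh3gl1, Rab11a and Gga1, and in 3.89% of all 32851 windows, or in 4.31% of genes. CACGTG, the core of the motif of lysosomal gene control, was present in Epn1, Rab5a, Vps26a and Gga2, 4 of the 34 (11.8%), and in 7.15% of all windows, or in 8.09% of genes. These motifs were chosen after the sequences and values had been seen. The 11.8% for CCGGAAGT counts Ap2s1 and Sh3gl1, whose shared match was the reason for showing them. That share is therefore no test of enrichment among the 34. A match is a description of the letters and not a site of binding.

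Clathrin is a triskelion of heavy and light chains that forms the cage of the pit. The heavy chain gene Cltc read 12.25, 12.27 and 12.28 in the WT arrays, 12.19, 12.18 and 12.24 in Stab1KO, 12.21, 12.22 and 12.15 in Stab2KO and 12.17, 12.14 and 11.71 in DKO. The DKO arrays lay below the WT arrays, DKO replicate 3 far more so than the others, and the Stab1KO and Stab2KO arrays were also all below WT. The DKO minus WT difference was -0.26 ± 0.11 (SE) with an adjusted p of 0.258, and -0.11 without DKO replicate 3. The light chain gene Clta read 9.93, 10.01 and 10.02 in the WT arrays, 9.93, 10.01 and 10.08 in Stab1KO, 10.00, 10.00 and 10.17 in Stab2KO and 9.79, 9.80 and 9.60 in DKO. All 3 DKO arrays were below the 9 others, and the single knockouts overlapped WT. Its difference was -0.25 ± 0.08 (adjusted p = 0.156), or -0.19 without DKO replicate 3. The second light chain, Cltb, differed by -0.24 ± 0.10 (adjusted p = 0.257; -0.13 without DKO replicate 3), and its DKO arrays overlapped WT. No clathrin chain gene was called, and the median of the 3 was -0.25 with DKO replicate 3, -0.13 without it and -0.13 after cyclic loess.

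AP2 is the adaptor that starts and organises the pit at the plasma membrane, built of alpha, beta, mu and sigma subunits. Ap2s1 encodes sigma, which with alpha forms the pocket that recognises dileucine sorting signals. It read 10.30, 10.29 and 10.22 in the WT arrays, 10.14, 10.28 and 10.41 in Stab1KO, 10.30, 10.36 and 10.32 in Stab2KO and 9.73, 9.89 and 9.59 in DKO. All 3 DKO arrays lay below the 9 other arrays, while Stab1KO overlapped WT and Stab2KO lay slightly above it. Ap2s1 fell by 0.53 on the log2 scale in DKO against WT (-0.53 ± 0.09, SE; 95% confidence interval -0.73 to -0.33; adjusted p = 0.0196), a DKO level of 0.692 times that of WT. Without DKO replicate 3 it fell by 0.46 (-0.46 ± 0.09; adjusted p = 0.0381). After cyclic loess of all arrays it was -0.41 ± 0.08 with an adjusted p of 0.0316. With both changes together, cyclic loess of the other 11 arrays, an alternative chosen after the data had been seen, it was -0.41 ± 0.09 and was not called (adjusted p = 0.0618). The call was lost, with adjusted p values of 0.065, 0.0875, 0.0637 and 0.0516, when WT replicate 1, 2 or 3 or DKO replicate 1 was left out, although the difference stayed between -0.61 and -0.46. It was also lost in a fit of the 6 WT and DKO arrays alone (adjusted p = 0.0914).

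The large subunits of AP2 were not called. Ap2a1, an alpha subunit, read 9.20, 9.02 and 9.10 in the WT arrays, 9.19, 9.06 and 9.40 in Stab1KO, 9.22, 9.33 and 9.41 in Stab2KO and 8.88, 9.08 and 8.92 in DKO. DKO overlapped WT, and the Stab2KO arrays were all above WT. The differences were -0.14 ± 0.10 in DKO and 0.21 ± 0.10 in Stab2KO (adjusted p = 0.521 and 0.68). Ap2a2, the other alpha subunit, differed by -0.39 ± 0.12 in DKO (adjusted p = 0.142) and by -0.23 without DKO replicate 3. Ap2b1, the beta subunit, differed by -0.17 ± 0.08 (adjusted p = 0.3). For both genes each DKO array was below the 9 other arrays. Over the 4 AP2 genes measured the median was -0.28, or -0.19 without DKO replicate 3 and -0.16 after cyclic loess.

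AP1 carries cargo between the trans-Golgi network and endosomes. Its beta subunit gene Ap1b1 read 11.48, 11.71 and 11.71 in the WT arrays, 11.54, 11.61 and 11.53 in Stab1KO, 11.71, 11.66 and 11.56 in Stab2KO and 11.47, 11.51 and 11.20 in DKO. DKO overlapped WT, with DKO replicate 3 the lowest of all arrays, and the difference was -0.24 ± 0.10 (adjusted p = 0.249; -0.15 without DKO replicate 3). Ap1s1, the sigma subunit, read 8.35, 8.45 and 8.29 in the WT arrays, 8.02, 8.37 and 8.57 in Stab1KO, 8.79, 8.44 and 8.54 in Stab2KO and 8.04, 8.11 and 8.15 in DKO. The DKO arrays were below all WT arrays but overlapped Stab1KO. The difference was -0.26 ± 0.13 in DKO (adjusted p = 0.355) and 0.22 ± 0.13 in Stab2KO (adjusted p = 0.772). Ap1m1, the mu subunit, differed by 0.10 ± 0.15 in DKO (adjusted p = 0.798), and by -0.10 without DKO replicate 3 with the opposite sign. For AP1 the median of 3 genes was -0.24, or -0.15 without DKO replicate 3 and -0.12 after cyclic loess.

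Of the genes that begin the coat or bring particular cargo to it, none of the 9 measured was called. Dab2, an adaptor that brings receptors with an NPXY signal into the pit, read 12.51, 12.74 and 12.50 in the WT arrays, 12.49, 12.41 and 12.46 in Stab1KO, 12.50, 12.46 and 12.55 in Stab2KO and 12.35, 12.42 and 11.83 in DKO. The DKO arrays were all below WT, but only DKO replicate 3 lay far from the others, and the Stab1KO arrays were also all below WT. The difference was -0.38 ± 0.14 in DKO (adjusted p = 0.195) and -0.20 without DKO replicate 3. Fcho1, which with Fcho2 nucleates the pit, read 4.71, 4.71 and 4.61 in the WT arrays, 4.72, 4.57 and 4.73 in Stab1KO, 4.56, 5.17 and 5.05 in Stab2KO and 4.88, 4.68 and 4.86 in DKO. These values lay near or below the table median, with 2 of the 3 Stab2KO arrays highest and DKO overlapping WT. Its differences were 0.13 ± 0.14 in DKO and 0.25 ± 0.14 in Stab2KO (adjusted p = 0.701 and 0.747).

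The other 7 of that group, Fcho2, the scaffolds Eps15, Itsn1 and Itsn2, the membrane-bending epsins Epn1 and Epn2, and Hip1, a link from clathrin to actin, differed from -0.23 to -0.04 in DKO, and from -0.17 to 0.00 without DKO replicate 3. Each DKO array lay below the 9 others for Epn1 (-0.15 ± 0.08; adjusted p = 0.39) and for Epn2 (-0.20 ± 0.08; adjusted p = 0.24; -0.12 without DKO replicate 3). Hip1 and Itsn2 differed by -0.22 ± 0.10 and -0.09 ± 0.07, and by -0.10 and -0.05 without that array. Itsn1 differed by -0.23 ± 0.16 with DKO replicate 3 and by 0.00 without it. Fcho2 differed by -0.04 ± 0.08, and by 0.002 without DKO replicate 3, with the opposite sign. Over all 9 the median was -0.20, or -0.10 without DKO replicate 3 and -0.08 after cyclic loess.

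Endophilin, amphiphysins and dynamin act at the neck of the pit. Sh3gl1 read 9.58, 9.64 and 9.52 in the WT arrays, 9.50, 9.51 and 9.37 in Stab1KO, 9.66, 9.61 and 9.59 in Stab2KO and 9.19, 9.29 and 9.05 in DKO. All 3 DKO arrays were below the 9 other arrays, and the Stab1KO arrays were all slightly below WT. Sh3gl1 fell by 0.40 on the log2 scale in DKO against WT (-0.40 ± 0.08, SE; 95% confidence interval -0.58 to -0.23; adjusted p = 0.0342). Without DKO replicate 3 it was -0.34 ± 0.08 with an adjusted p of 0.0697, and after cyclic loess -0.28 ± 0.07 (adjusted p = 0.0613), so that neither passed. With both changes together the adjusted p was 0.115. The call was also lost, with adjusted p values of 0.0528 to 0.147, when any WT array, Stab2KO replicate 1 or 2 or DKO replicate 1 was left out, and in a fit of the 6 WT and DKO arrays alone (adjusted p = 0.131). Over the 12 fits that each left out 1 array the difference stayed between -0.46 and -0.34.

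The other curvature and scission genes were not called. Bin1, amphiphysin 2, read 8.01, 7.91 and 7.83 in the WT arrays, 7.91, 7.90 and 7.74 in Stab1KO, 8.03, 8.14 and 7.99 in Stab2KO and 8.0, 7.79 and 7.69 in DKO. DKO and WT overlapped. The differences were -0.09 ± 0.10 in DKO (adjusted p = 0.713; -0.02 without DKO replicate 3) and 0.14 ± 0.10 in Stab2KO (adjusted p = 0.816). Dnm2, the dynamin found in most tissues, was among the steadiest, at -0.03 ± 0.07 in DKO with an interval of -0.17 to 0.12 (-0.01 without DKO replicate 3). Amph and Dnm1, the forms best known from nerve terminals, lay at or below the table median in all 12 arrays and were not shown to exceed background. They differed by -0.14 ± 0.09 and -0.14 ± 0.13, and without DKO replicate 3 by -0.16 and -0.04. Over the 5 genes of this group the median was -0.14, or -0.04 without DKO replicate 3 and -0.11 after cyclic loess.

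**Figure D3:**
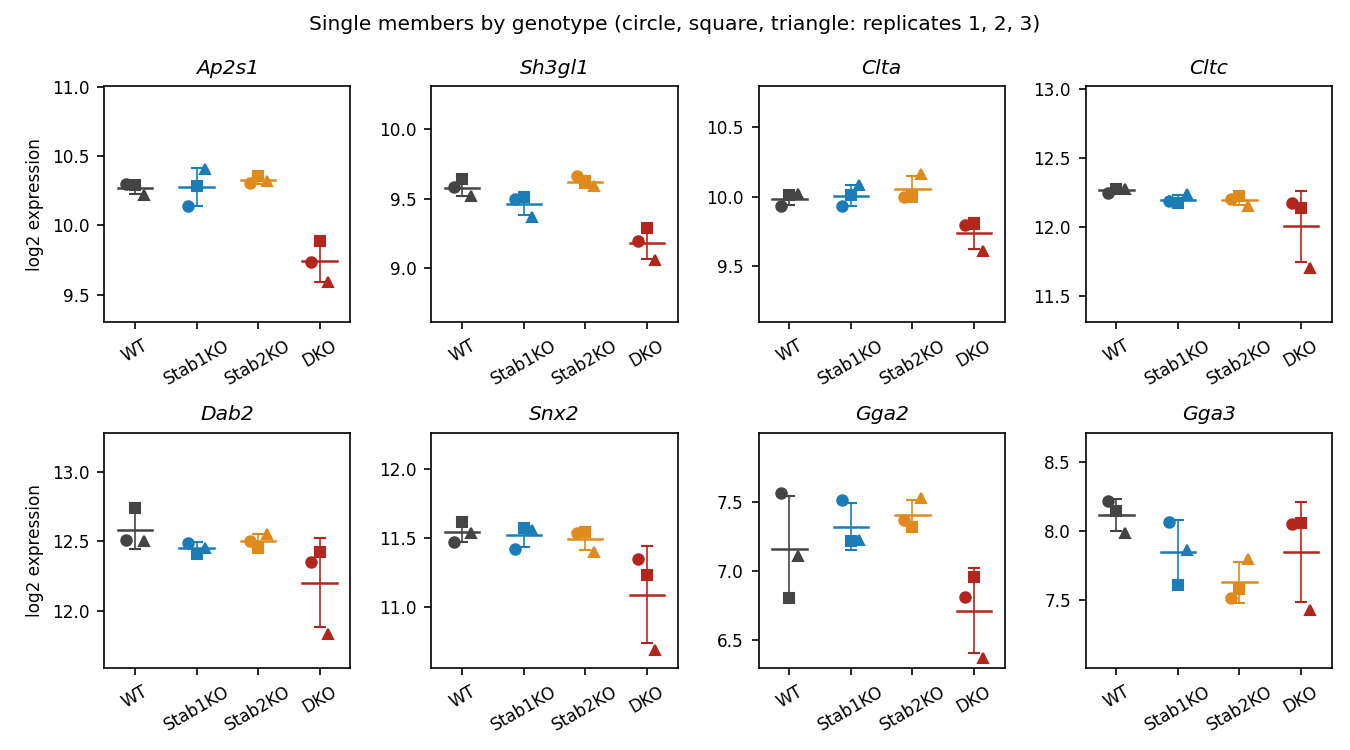
Log2 expression of 8 genes in each array by genotype, with symbols for replicates 1, 2 and 3 and bars for the mean and SD of the 3 arrays; every vertical axis covers the same span. Ap2s1, Sh3gl1, Clta and Snx2 have all 3 DKO arrays below the 9 others. In Cltc, Dab2 and Snx2 replicate 3 lies well below the other DKO arrays, and in Gga2 and Gga3 the arrays of a genotype scatter widely.

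The Rab GTPases label endosomes and recruit the machinery that moves and fuses them. None of the 6 measured, nor the tether gene Eea1, was called. Rab5b, 1 of the 3 Rab5 genes, read 8.96, 8.68 and 8.75 in the WT arrays, 8.62, 8.71 and 8.53 in Stab1KO, 8.99, 8.85 and 8.63 in Stab2KO and 8.33, 8.67 and 8.93 in DKO. DKO spanned nearly the whole range of the other arrays, with replicate 1 lowest and replicate 3 near the highest. The difference was -0.15 ± 0.15 (adjusted p = 0.68), and -0.29 without DKO replicate 3 (adjusted p = 0.384). Rab4a, of fast recycling, read 4.78, 4.03 and 4.09 in the WT arrays, 4.40, 4.08 and 4.01 in Stab1KO, 4.50, 4.03 and 3.60 in Stab2KO and 3.91, 4.14 and 3.83 in DKO. It lay below the table median throughout and was not shown to exceed background. Its difference of -0.34 ± 0.24 in DKO carried the widest error of the 39 genes (adjusted p = 0.534).

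Rab5a, another Rab5 gene, had a DKO minus WT difference of 0.00 ± 0.07 with an interval of -0.16 to 0.15 (-0.04 without DKO replicate 3). The third, Rab5c, differed by -0.23 ± 0.09 (adjusted p = 0.216). Rab11a, of slow recycling, differed by -0.23 ± 0.08 (adjusted p = 0.195), and each DKO array was below the 9 others. Rab7, of the late endosome, differed by -0.10 ± 0.06 and had the smallest spread within a genotype of the 39, an SD of 0.0467. Eea1 differed by -0.20 ± 0.14, and by -0.03 without DKO replicate 3. Rabs and Eea1 together had a median of -0.20, or -0.17 without DKO replicate 3 and -0.08 after cyclic loess.

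Retromer, with Vps26 and Vps35 as cargo-binding subunits, and the sorting nexins Snx1 and Snx2 draw receptors out of endosomes before they reach the lysosome. Each DKO array was below each WT array for all 4 genes measured, a pattern held by 15.0% of all genes, and none was called. Snx2 read 11.47, 11.61 and 11.54 in the WT arrays, 11.42, 11.57 and 11.56 in Stab1KO, 11.54, 11.54 and 11.40 in Stab2KO and 11.35, 11.23 and 10.69 in DKO. DKO replicate 3 was by far the lowest and the other DKO arrays were still below the 9 remaining arrays. The difference was -0.45 ± 0.14 (adjusted p = 0.149), and -0.25 without DKO replicate 3 (adjusted p = 0.209). Vps26a read 10.35, 10.38 and 10.27 in the WT arrays, 10.29, 10.25 and 10.20 in Stab1KO, 10.29, 10.30 and 10.29 in Stab2KO and 10.10, 10.05 and 10.26 in DKO. Here DKO replicates 1 and 2 were the lowest arrays and replicate 3 lay closest to WT. Its difference was -0.20 ± 0.07 (adjusted p = 0.201), and -0.26 without DKO replicate 3 (adjusted p = 0.111).

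Snx1 read 9.04, 9.09 and 9.11 in the WT arrays, 8.99, 9.25 and 8.99 in Stab1KO, 9.25, 9.37 and 9.08 in Stab2KO and 8.95, 8.99 and 8.91 in DKO. DKO was below WT by little, and Stab2KO reached the highest values. The differences were -0.13 ± 0.09 in DKO and 0.15 ± 0.09 in Stab2KO (adjusted p = 0.535 and 0.779). Vps35 differed by -0.26 ± 0.11 in DKO (adjusted p = 0.272) and by -0.31 without DKO replicate 3. For these 4 genes the median was -0.23, or -0.25 without DKO replicate 3 and -0.11 after cyclic loess.

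The GGA proteins are monomeric adaptors of the trans-Golgi network, and Hgs encodes a subunit of ESCRT-0, which gathers ubiquitinated receptors on endosomes. None of the 4 was called. Gga2 read 7.56, 6.80 and 7.11 in the WT arrays, 7.52, 7.22 and 7.23 in Stab1KO, 7.37, 7.32 and 7.53 in Stab2KO and 6.81, 6.96 and 6.37 in DKO. WT alone covered much of the range, and DKO overlapped it. The difference was -0.45 ± 0.19 (adjusted p = 0.282), and -0.27 without DKO replicate 3. Gga3 read 8.21, 8.15 and 7.99 in the WT arrays, 8.07, 7.61 and 7.86 in Stab1KO, 7.51, 7.58 and 7.80 in Stab2KO and 8.05, 8.06 and 7.43 in DKO. The Stab2KO arrays were all below WT, whereas DKO replicates 1 and 2 lay among the WT values and replicate 3 well below. The difference was -0.27 ± 0.17 in DKO (adjusted p = 0.482; -0.06 without DKO replicate 3). Gga1 and Hgs differed by 0.06 ± 0.13 and 0.03 ± 0.08, or by 0.09 and 0.07 without DKO replicate 3. The median of the group was -0.12 in DKO, but 0.00 without DKO replicate 3 and -0.01 after cyclic loess, and with both changes together it was above 0, at 0.06.

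**Figure D4:**
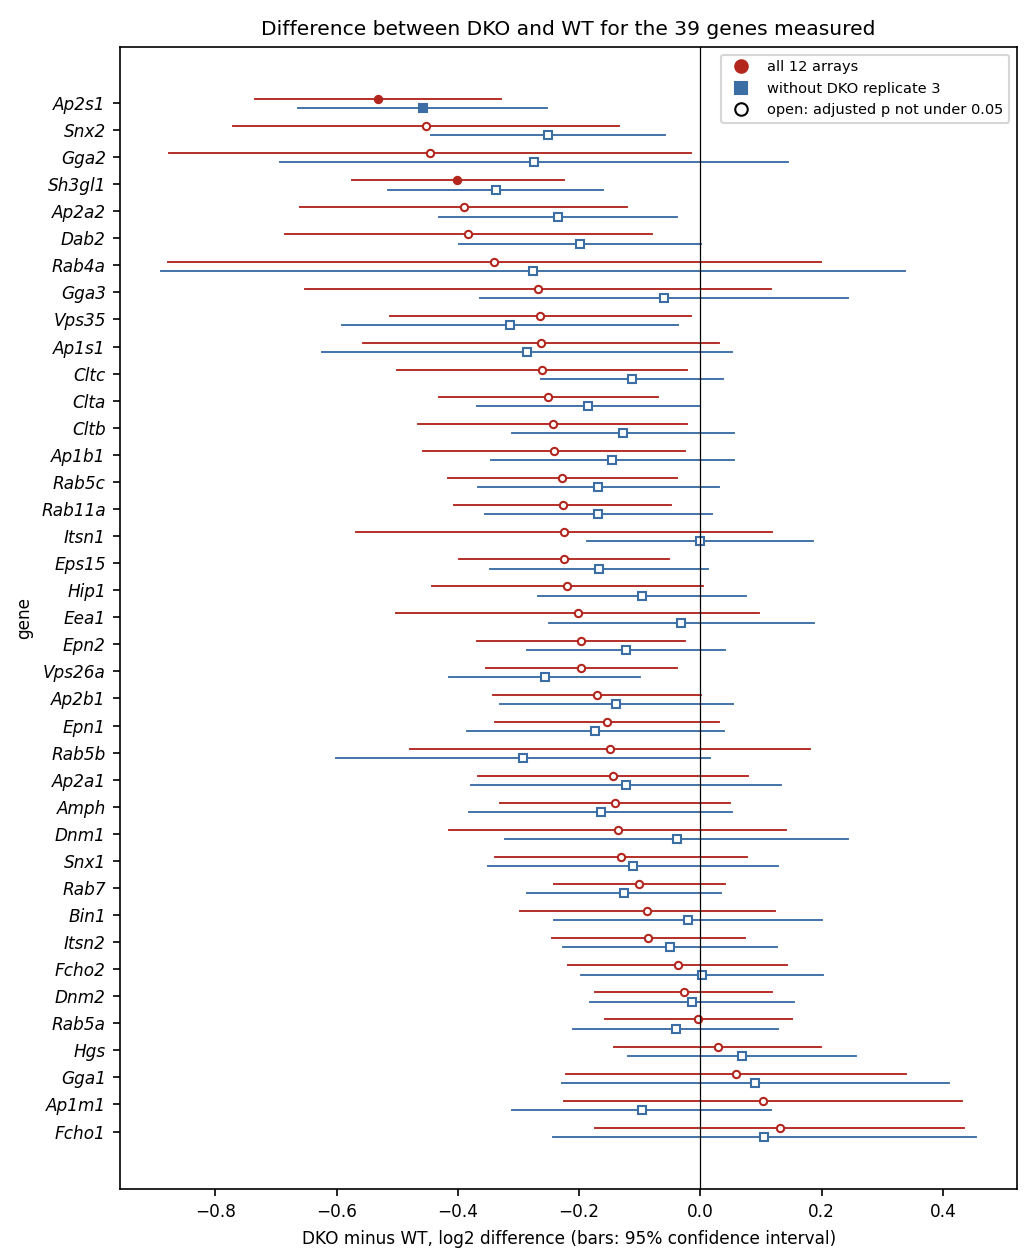
DKO minus WT log2 difference with its 95% confidence interval for each of the 39 genes, from all 12 arrays (red circles) and without DKO replicate 3 (blue squares); filled symbols have an adjusted p under 0.05. Ap2s1 (-0.53, and -0.46 without that array) is filled in both fits, Sh3gl1 (-0.40) is filled with all 12 arrays, and 35 of the 39 lie below 0 in each.

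None of the 39 genes passed the test in mice lacking either stabilin alone. In Stab1KO against WT, limma called 0 of the 39, where 0.308% of all genes were called, and 0 reached an unadjusted p under 0.05, against 3.91% of all genes. The median difference was -0.02 (0.01 over all genes), with 23 of the 39 below 0. In Stab2KO against WT, limma called 0 of the 39, where 0.296% of all genes were called. Here 2 genes, Gga3 and Itsn2, had an unadjusted p under 0.05, both lower. Of all genes, 7.62% reached it in either direction and 3.25% as lower. Gga3 differed by -0.49 ± 0.17 (interval -0.87 to -0.10; adjusted p = 0.505) and Itsn2 by -0.21 ± 0.07 (adjusted p = 0.466). The median was 0.01, as over all genes, with 19 of the 39 below 0. The 95% confidence intervals of the 39 genes together ran from -0.67 to 0.59 in Stab1KO and from -0.87 to 0.68 in Stab2KO, and with 3 arrays a group the number of arrays limits the precision. All 3 comparisons share the WT arrays.

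Of the 39 genes, each Stab1KO array lay below each WT array for Cltc, Dab2 and Sh3gl1 and above it for Hgs, against 4.72% and 5.36% of all genes. Each Stab2KO array lay below each WT array for 6 genes, Cltc, Itsn1, Itsn2, Rab5a, Eea1 and Gga3, against 7.63% of all genes. It lay above for 4, Ap2a1, Ap2s1, Ap1m1 and Hgs, against 8.09% of all genes. Hgs was thus above WT in both single knockouts, at 0.16 ± 0.08 and 0.13 ± 0.08. Between Stab2KO and Stab1KO, limma called 0 of the 39 genes, where 0.108% of all genes were called. Itsn2 alone had an unadjusted p under 0.05 in that comparison (-0.17 ± 0.07; adjusted p = 0.655), against 7.07% of all genes.

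Against the single knockouts DKO again differed in Ap2s1, in comparisons that share the DKO arrays with those above. In DKO against Stab1KO, Ap2s1 was the 1 gene of the 39 called, where 0.945% of all genes were called and 0.400% were called lower. It fell by 0.54 (-0.54 ± 0.09; adjusted p = 0.0293), and by 0.46 without DKO replicate 3 (adjusted p = 0.0428; 1.49% of all genes called, 0.362% lower). Sh3gl1 differed by -0.28 ± 0.08 and was not called (adjusted p = 0.116). In DKO against Stab2KO both were called, 2 of the 39, where 3.42% of all genes were called and 2.12% were called lower. Ap2s1 fell by 0.59 (-0.59 ± 0.09; adjusted p = 0.0146) and Sh3gl1 by 0.44 (-0.44 ± 0.08; adjusted p = 0.0219). The same 2 genes were called without DKO replicate 3, with adjusted p values of 0.0227 and 0.0349, where 3.42% of all genes were called and 1.46% lower. The median of the 39 was -0.17 against Stab1KO and -0.18 against Stab2KO, where all genes had -0.03 in each. Without DKO replicate 3 these medians were -0.12 and -0.15, and after cyclic loess -0.064 and -0.078.

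These calls were lost when single arrays were left out. Ap2s1 against Stab1KO had an adjusted p of 0.115 without Stab1KO replicate 2, 0.101 without Stab1KO replicate 3, 0.0669 without DKO replicate 1 and 0.05 to 0.0506 without WT replicate 3 or Stab2KO replicate 1 or 2. Against Stab2KO, leaving out Stab2KO replicate 1 or 2 raised the adjusted p to 0.0563 and 0.0686 for Ap2s1 and to 0.0882 and 0.0809 for Sh3gl1. After cyclic loess of the 11 arrays other than DKO replicate 3, Ap2s1 against Stab1KO (adjusted p = 0.0636) and Sh3gl1 against Stab2KO (0.0567) were not called. In fits of only the 6 arrays compared the adjusted p was 0.217 for Ap2s1 against Stab1KO, and 0.0968 for Ap2s1 and 0.125 for Sh3gl1 against Stab2KO.

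Whether the difference made by losing Stab2 depended on Stab1 was asked with the interaction, the DKO minus Stab1KO difference less the Stab2KO minus WT difference. By limma it was called for 0 of the 39 genes, where 0.05% of all genes were called. An unadjusted p under 0.05 was reached by 10 of the 39, all negative. Of all genes, 12.5% reached it in either direction and 7.78% with a negative value. For Ap2s1 it was -0.59 ± 0.13 (interval -0.88 to -0.31; adjusted p = 0.118) and for Sh3gl1 -0.32 ± 0.11 (adjusted p = 0.261). With DKO replicate 3 left out, limma again called 0 of the 39, where 0.466% of all genes were called, and 8 had an unadjusted p under 0.05, 7 negative and 1, Gga3, positive, against 13.5% of all genes. Ap2s1 then stood at -0.52 ± 0.12 (adjusted p = 0.102). A larger difference in DKO than the sum of the single knockouts was therefore not shown for either gene. In size the largest with all 12 arrays was that of Gga2, -0.85 ± 0.28 (adjusted p = 0.233). Without DKO replicate 3 it was that of Gga3, 0.70 ± 0.18 (adjusted p = 0.13), ahead of Gga2 at -0.68. A moderated F-test over the 3 comparisons with WT called 2 of the 39, Ap2s1 (adjusted p = 0.0225) and Sh3gl1 (adjusted p = 0.0477), where 1.62% of all genes were called. Leaving out DKO replicate 3, it called neither, at 0.0522 and 0.0954.

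Each DKO array lay below each of the 9 other arrays for 9 of the 39 genes, where 4.73% of all genes showed this. They were Clta, Ap2a2, Ap2b1, Ap2s1, Epn1, Epn2, Sh3gl1, Rab11a and Snx2, so that 3 of the 4 AP2 genes measured were among them and none of AP1. With DKO replicates 1 and 2 alone the count was 11, against 6.69% of all genes. The 39 genes varied little within a genotype. Their median SD was 0.11, against 0.15 over all genes and 0.18 over genes above the 40th percentile of signal, and the extremes were 0.0467 for Rab7 and 0.336 for Rab4a.

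The genes beside Ap2s1 and Sh3gl1 on their chromosomes were examined, 5 measured genes on each side. None of the 10 around Ap2s1 was called in DKO against WT, where 1.80% of all genes were called, with differences from -0.50 (Strn4; adjusted p = 0.0528) to 0.26. Npas1, Ceacam-ps1, Ceacam15, Ceacam9 and Dact3 had WT and DKO means below the table median of 5.11, so a fall could hardly show in them. None of the 10 around Sh3gl1 was called, with differences from -0.27 to 0.31, and there Fsd1 had both means below the table median. None of the 39 genes shares a chromosome with Stab1, while Eea1, Vps26a and Rab5b share that of Stab2. They lie 9.07, 24.5 and 41.8 Mb from it. In Stab2KO against WT, Vps26a differed by -0.04 ± 0.07, Eea1 by -0.14 ± 0.14 and Rab5b by 0.03 ± 0.15, and none of the 3 was called. In DKO, which also lacks Stab2, Vps26a differed from WT by -0.20, Eea1 by -0.20 and Rab5b by -0.15. Without DKO replicate 3 these were -0.26, -0.03 and -0.29, and none of the 3 was called in either fit. The part of the shared chromosome was not tested.

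Beyond the listed genes, 193 of 197 genes on 7 lists of the same pathways were measured. In DKO against WT their median was -0.09, 125 of 193 were below 0, 1 was called lower and 2 were called higher, where 56.0% of all genes were below 0 and 1.80% were called. Without DKO replicate 3 the median was again -0.09, with 128 below 0 and 1 called in each direction. No gene of these lists was called in Stab1KO or Stab2KO against WT. The list closest in direction to the 39 was that of the other retromer, retriever and sorting nexin genes, with a median of -0.21 and 33 of 37 below 0 (-0.15 and 33 without DKO replicate 3). Its called gene was Vps26c, a subunit of retriever, the retromer-like complex that returns integrins and other cargo to the surface. Vps26c read 9.55, 9.33 and 9.44 in the WT arrays, 9.32, 9.33 and 9.32 in Stab1KO, 9.41, 9.50 and 9.40 in Stab2KO and 8.96, 8.94 and 9.17 in DKO. All 3 DKO arrays were below the 9 others. It fell by 0.42 (-0.42 ± 0.08; adjusted p = 0.0356), and by 0.49 without DKO replicate 3 (adjusted p = 0.0171).

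In DKO against Stab2KO 6 of the 37 on that list were called lower, where 2.12% of all genes were, and without DKO replicate 3 the count was 4, where 1.46% of all genes were. Apart from Vps26c they are named here after their values were seen. They were Commd4 (-0.61), Commd5 (-0.66), Commd6 (-0.35), Commd9 (-0.65) and Ccdc22 (-0.46), which all encode subunits of the CCC complex, the partner of retriever on endosomes. Commd1, Commd2, Commd3, Commd7, Commd8, Commd10 and Ccdc93, subunits of the same complex on that list, were not called in this comparison. Over all the pathway lists, 9 of the 193 genes were called lower in it and 1 higher. Commd4, Commd5 and Commd9 were also called without DKO replicate 3 (adjusted p = 0.0223, 0.0455 and 0.0283), while Commd6 and Ccdc22 were not (0.0744 and 0.055). The Stab2KO means were above WT for all 5 of the called CCC genes, by 0.05 (Ccdc22) to 0.30 (Commd4), and none was called in Stab2KO against WT. Against WT the DKO differences were -0.45 ± 0.14 for Commd5, -0.44 ± 0.11 for Commd9, -0.40 ± 0.10 for Ccdc22, -0.31 ± 0.09 for Commd4 and -0.21 ± 0.08 for Commd6, and none was called (adjusted p = 0.0658 to 0.253).

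The 2 genes called higher in DKO against WT belonged to other lists. Ehd2, an ATPase of caveolae and of recycling membranes, rose by 1.02 ± 0.18 (adjusted p = 0.021; 1.03 and 0.0361 without DKO replicate 3), with means of 7.62 in WT, 7.99 in Stab1KO, 8.49 in Stab2KO and 8.63 in DKO. Tom1l1, an adaptor that binds ubiquitin and clathrin, rose by 0.82 ± 0.16 (adjusted p = 0.0352), and by 0.73 with an adjusted p of 0.0733 without DKO replicate 3. Its means were 4.48 in WT, 4.59 in Stab1KO and 4.59 in Stab2KO, below the table median of 5.11, and 5.30 in DKO. The lists around them had medians of 0.01 over 27 recycling genes, 13 below 0, and of -0.05 over 35 ESCRT genes, 22 below 0.

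The 4 remaining lists held no called gene in DKO against WT. Their medians were -0.02 over 18 subunits of other adaptor complexes, 0.00 over 39 coat accessory genes, -0.17 over 18 early endosome effectors and -0.15 over 19 late endosome tethers, with 10, 18, 14 and 15 genes below 0. The largest differences were -0.45 ± 0.12 for Ap4s1 (adjusted p = 0.0879), 0.80 ± 0.36 for Dnm3 (adjusted p = 0.297), 1.26 ± 0.68 for Tbc1d2 (adjusted p = 0.384) and -0.41 ± 0.20 for Tgfbrap1 (adjusted p = 0.329). Those of Tbc1d2 and Tgfbrap1 were 0.19 and -0.12 without DKO replicate 3.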

How the data were processed

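The values are log2 expression deposited by the authors in a series table; RMA was used per the submitters' processing notes, and the sources used here name no other step or build. Of 24973 rows, 24015 had 1 symbol in the platform annotation, none had several, and 958 were not listed and stayed unnamed. The higher-mean row was kept where 2 rows shared a symbol (4 left out), which left 24011 genes.

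A model of 4 genotype means over all 12 arrays was fitted with limma 3.58.1 in R 4.3.3, with 7 contrasts and a moderated F-test, 2-sided, Benjamini-Hochberg adjusted over all genes. An adjusted p under 0.05 was called. The fits were also run on simulated arrays, with independent noise of equal spread in all genotypes and known steps in DKO. No simulated array stood apart as DKO replicate 3 did, so that run does not measure how such an array moves the calls. The labels call the samples of a genotype biological replicates of 3 pooled mice each. The deviations of same-numbered arrays correlated above 0.1 in 4 of 18 pairs, not in every pair, so replicate numbers were not used as a block.

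Alternatives were a replicate block, a filter at the 40th percentile of mean signal, trended robust variances, array weights, cyclic loess, all rows, a fit of just the 6 arrays of a comparison, and leaving out every array in turn. Genes given array by array were those called and, per role group, those with the largest difference in each comparison with WT. Of each pathway list, genes called against WT were named, or otherwise the largest DKO difference. The genes and lists were chosen with earlier results of these data known. Arrays carry no count of molecules, so their number and the spread between them set the precision.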

Additional observations from a re-analysis of the deposited data

How the results depend on the processing

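The counts of the 39 genes called were the same with a replicate block as without it: 2 in DKO against WT, 1 against Stab1KO and 2 against Stab2KO. Over 18 same-numbered pairs the correlation of deviations ran from -0.0636 to 0.291 and exceeded 0.1 in 4, short of the pairing criterion that every pair exceed 0.1. Over all genes the block gave 508 calls in DKO against WT in place of 432. With array weights, which weigh down arrays that stand apart, there were 1111 calls in place of 432, 466 in place of 227 against Stab1KO, 1789 in place of 822 against Stab2KO, 148 in place of 71 in Stab2KO against WT and 199 in place of 12 for the interaction. Vps26a then joined Ap2s1 and Sh3gl1, which made 3 of the 39 in DKO against WT. The F-test called 1 of the 39 rather than 2 under the low-signal filter, under trended robust variances and under cyclic loess. Cyclic loess called 1 in DKO against WT, and the medians of the 39 were -0.10 in DKO against WT, -0.064 against Stab1KO, -0.078 against Stab2KO and -0.052 for the interaction. It moved the median of all genes by at most 0.047. With only the 6 arrays compared, 0 were called in each of the 3 DKO comparisons, with 11 (against WT), 7 (Stab1KO) and 10 (Stab2KO) at an unadjusted p under 0.05, all lower, where 10.1%, 7.83% and 9.44% of all genes were lower at that p; that fit has fewer samples. Cyclic loess of the 11 arrays other than DKO replicate 3, chosen after the data had been seen, called 0 against WT, 0 against Stab1KO, 1 against Stab2KO and 0 by the F-test. Its medians were -0.077, -0.064 and -0.11. Leaving out each array in turn gave 0 to 2 called against WT, 0 to 1 against Stab1KO, 0 to 3 against Stab2KO and 0 to 1 by the F-test. The medians then ran from -0.24 to -0.13, from -0.19 to -0.12 and, for the interaction, from -0.22 to -0.13. The cause of these changes was not tested. No difference of Ap2s1 or Sh3gl1 in a comparison that called it turned its sign under any alternative run. Probes near background limit Amph, Dnm1, Rab4a and Fcho1, and also Tom1l1 of the pathway lists.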
